A study of Mus musculus with 2 samples.

Results

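Mir126a (ENSMUSG00000065540.1) is the mouse gene of the miR-126 hairpin, and its level in fetal liver was read from 1 row of 1973 miRNA gene rows, found by its gene identifier. Small RNA from whole liver was sequenced in healthy B6NCrl mouse embryos at embryonic day 16.5. The series held 1 group of 2 biological replicates, each a pool of livers of both sexes. Livers of 41 embryos went into the pool of replicate 2, while the number for replicate 1 is not in the labels. No embryo was treated or genetically modified per the labels, so there was no contrast between conditions, and the question addressed here is how abundant Mir126a was among all miRNA genes in each library.

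MicroRNAs are cut from hairpin precursors and repress messenger RNAs that pair with their seed, bases 2 to 8 of the mature strand. miR-126 is made from an intron of Egfl7, a gene for a secreted factor of endothelial cells, and is known for its part in angiogenesis and vessel integrity, where it represses the signalling inhibitors Spred1 and Pik3r2 and the adhesion molecule Vcam1. It is also known in hematopoietic stem cells, where it restrains cell cycle entry, and in megakaryocytes. The fetal liver holds all of these cell types, and counts of whole tissue do not show which of them gave the reads. Fewer cells of a type and less RNA per cell cannot be told apart either.

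The hairpin and its annotated strands are shown because each Mir126a count below is a count over this locus. The other arm of the hairpin, miR-126a-5p, is not shown and entered no seed comparison. The mature sequences are from RefSeq (GRCm38.p6, the assembly of mm10), 5′ to 3′. In the hairpin, capitals mark miR-126a-3p, which occupies bases 46 to 67 of 73. In the mature strands, capitals mark the seed.
Mir126a hairpin, chromosome 2, plus strand: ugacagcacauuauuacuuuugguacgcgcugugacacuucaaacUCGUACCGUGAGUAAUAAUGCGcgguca
miR-126a-3p: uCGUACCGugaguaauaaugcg
miR-126b-5p, minus strand: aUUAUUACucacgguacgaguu
miR-126b-3p, minus strand: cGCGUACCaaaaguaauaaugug
miR-126b is annotated at the same place on the opposite strand. miR-126b-5p overlaps miR-126a-3p by 19 bases as its reverse complement. miR-126b-3p lies across from the other arm of the Mir126a hairpin, and it carries the same base as miR-126a-3p at 17 of 22 positions when aligned without gaps, with a run of 10 identical bases.

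In mm10 the hairpin spans chromosome 2 positions 26591357 to 26591429 on the plus strand and sits inside Egfl7 (chromosome 2, 26580014 to 26593120). It falls in an intron of 7 of the 12 protein-coding transcripts of Egfl7 in GENCODE M21. In 5 of these the intron runs between an exon that ends at 26591063 and one that starts at 26591664. The hairpin is within an exon in 1 of the 19 transcripts, a retained-intron form. A second coding gene of the same strand, Gm20532 (26586639 to 26635634), also spans it. Of the 56 words of 18 bases in the hairpin, none occurred in another listed gene on either strand. The rest of the genome was not searched.

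Mir126a was among the most abundant miRNA genes of the fetal liver by counts that leave out multimapping reads. It had 269638 sense-strand counts of 5930074 in replicate 1 and 247693 of 5102289 in replicate 2. In CPM, the count per 1000000 sense-strand counts in gene rows, its level was 45470 in replicate 1 and 48545 in replicate 2, a mean of 47008 ± 2175 CPM (SD, n = 2). Its share of the counts was 4.55% in replicate 1, with an exact 95% Clopper-Pearson interval of 4.53% to 4.56%. In replicate 2 the share was 4.85%, with an interval of 4.84% to 4.87%. In other words 1 in 22.0 miRNA counts of replicate 1 and 1 in 20.6 of replicate 2 came from this hairpin. These intervals reflect counting error alone and treat each read as independent. They can be too narrow even for that, because reads copied by PCR do not stand for separate molecules. Multimapping reads, 28.1% of the reads tallied in replicate 1 and 28.2% in replicate 2, were not counted. Genes that share their sequence with another can therefore be undercounted beside Mir126a, in level and in rank.

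Mir126a ranked 4 of 1973 rows in both libraries, with 1969 rows below it. The median of the rows detected at 1 CPM or more was 27.7 CPM in replicate 1 (450 rows) and 59.1 CPM in replicate 2 (414 rows), which Mir126a exceeded 1644-fold in replicate 1 and 822-fold in replicate 2. Of the 3 rows above it, Mir26b, hosted by the phosphatase gene Ctdsp1, was nearest at 50959 CPM in replicate 1 and 55091 CPM in replicate 2. Mir126a stood at -0.17 ± 0.01 against Mir26b on the log2 scale (SD, n = 2), and the ranges of the pair over the libraries did not overlap. Mirlet7g, a member of the let-7 family that accumulates as tissues differentiate, was 1.27-fold and 1.21-fold above Mir126a in replicates 1 and 2. Mir122, the hepatocyte miRNA that checks the labelled tissue, was 4.69-fold and 4.42-fold above it, so that Mir126a stood at -2.19 ± 0.06 against Mir122 on the log2 scale.

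**Figure D1:**
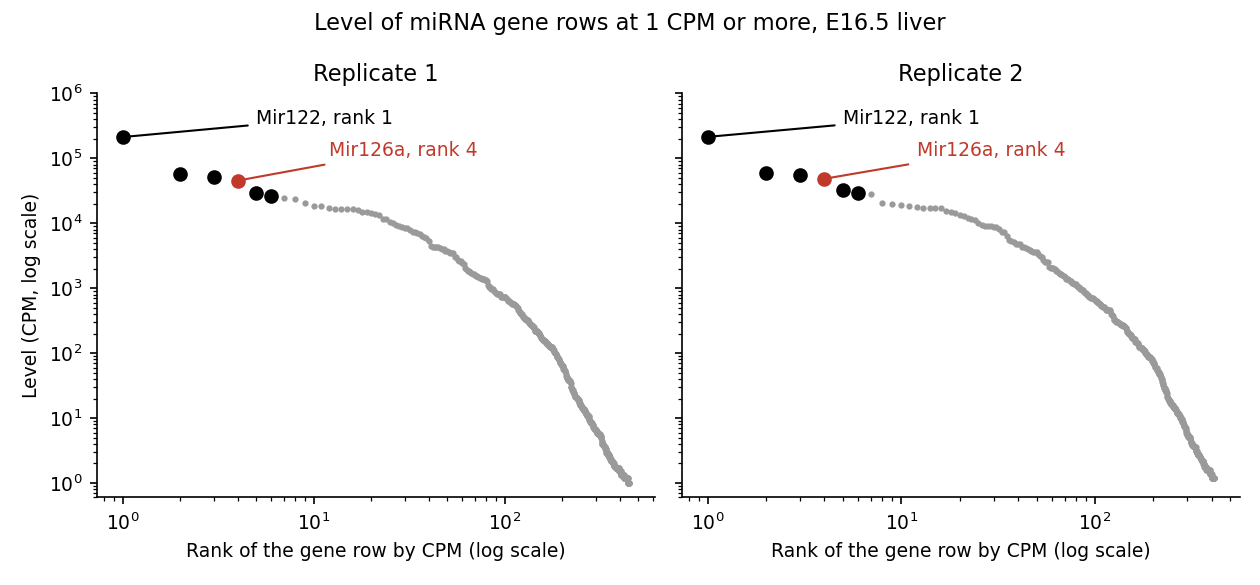
Level of each miRNA gene row at 1 CPM or more (y axis, CPM, log scale) against its rank (x axis, log scale) in replicate 1 and replicate 2, where each point is 1 row and the 6 highest are drawn larger. Mir126a, in red, is at rank 4 in both panels, at 45470 CPM in replicate 1 and 48545 CPM in replicate 2, above a gap to the next row.

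Below Mir126a there was a gap. Mir335, from an intron of the imprinted gene Mest, was the next row at 28966 CPM in replicate 1 and 33149 CPM in replicate 2, and Mir126a exceeded it 1.57-fold in replicate 1 and 1.46-fold in replicate 2 (log2 0.60 ± 0.07, SD, n = 2). Mir411, a miRNA of the imprinted Dlk1-Dio3 cluster, was exceeded 1.74-fold and 1.68-fold. Mirlet7i was exceeded 1.85-fold and 1.72-fold, Mir17 of the proliferation-associated miR-17-92 cluster 1.91-fold and 2.35-fold, and Mir322 2.24-fold and 2.58-fold. This order is over sense-strand rows. Counted from the other strand of the Mir142b row, Mir142 would stand between Mir126a and Mir335, at 31509 CPM in replicate 1 and 36500 CPM in replicate 2. Counts are of whole hairpins and were not divided by length, since a mature miRNA is read in full by a single read. With 2 libraries an exact two-sided sign-flip test of a ratio cannot give a p below 0.5, so the order is given as a description.

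Mir126a stood alone in its stretch of chromosome 2. The nearest other listed gene on chromosome 2, Mir6996 in Notch1, was 121 kb away on the opposite strand and had 0 counts in replicate 1 and 1 in replicate 2. The next, Gm24049, was 810 kb away and had no count in either library, which allows up to 0.506 CPM in replicate 1 and 0.588 CPM in replicate 2. Mir126a alone held 66.2% of the counts of the 224 listed genes of chromosome 2 in replicate 1 and 67.3% in replicate 2. These counts leave out multimapping reads, so genes of chromosome 2 that share sequence with other genes can be undercounted. The share of Mir126a can then be too high. Mir130a was the next in level on that chromosome. Of the 1894 rows with an annotated position, 863 overlapped a protein-coding gene on the same strand, and Mir126a ranked 3 among these, after Mirlet7g in Wdr82 and Mir26b in Ctdsp1. It held 12.8% of their summed counts in replicate 1 and 13.6% in replicate 2, sums that also leave out multimapping reads.

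Against lists of miRNAs known from the cell types of the fetal liver, Mir126a exceeded the summed counts of 5 of 8 lists in both libraries and lay below the sums of the hepatocyte list, the leukocyte list and the other vascular miRNAs. No other member was in the endothelial list, and Egfl7 messenger RNA is not in these tables, so the endothelial label rests on background knowledge and was not checked by a second marker. Among 19 other miRNAs studied in vascular endothelium, 18 had a row and 14 reached a mean of 100 CPM. Together they held 5.77% of the counts in replicate 1 and 5.52% in replicate 2, that is 1.27-fold and 1.14-fold the count of Mir126a. Mir24-1 has no row of its own, and the other strand of the Mir3074-1 row, where it lies, adds 105 counts in replicate 1 and 78 in replicate 2. Mir130a led them at 17114 ± 970 CPM, followed by Mir23a at 12861 ± 1052 CPM and Mir23b at 9049 ± 9.24 CPM (SD, n = 2). Mir221 and Mir222, which repress the receptor gene Kit, were at 308 ± 13.6 CPM and 126 ± 1.13 CPM, and Mir210, the hypoxia-induced miRNA, at 594 ± 121 CPM. Mir126a exceeded Mir130a, the highest of them, 2.77-fold in replicate 1 and 2.73-fold in replicate 2. As background, the list is not restricted to endothelium. Of the 18 rows, 7 have an 18-base word in common with some other row, and reads that multimap were not counted. Such a word also occurs in 2 of the 8 stem and progenitor rows and 3 of the 6 mesenchymal rows. It occurs as well in 2 of 5 hepatocyte, 1 of 4 megakaryocyte and 1 of 5 leukocyte rows.

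Of the blood-cell lists, those of stem and progenitor cells, megakaryocytes and erythroid cells were lower in sum than Mir126a, and that of leukocytes was higher. The 8 other members of the hematopoietic stem and progenitor list held 3.95% in replicate 1 and 3.84% in replicate 2. Mir126a exceeded their sum 1.15-fold and 1.27-fold, a margin over counts that leave out multimapping reads. The list was led by Mir130a, Mir99a (13641 ± 504 CPM) and Mir99b (5664 ± 1170 CPM). The 4 other members of the megakaryocyte and platelet list were exceeded 2.65-fold and 2.71-fold in sum, nearly all of it Mir223 at 17149 ± 537 CPM, a miRNA that is also abundant in granulocytes and monocytes. Mir146 was at 295 ± 9.74 CPM, Mir34a at 60.4 ± 3.08 CPM and Mir150, a lymphocyte miRNA, at 24.5 ± 1.06 CPM. The erythroid list of Mir451a, Mir144 and Mir486 was exceeded 1.89-fold and 1.79-fold. Mir451a, the red-cell miRNA cut without Dicer, was at 16978 ± 722 CPM, Mir144 at 8041 ± 1645 CPM and Mir486 at 593 ± 189 CPM. Mir142, a pan-leukocyte miRNA, led the leukocyte list. It has no row of its own, but its hairpin (chromosome 11, 87756864 to 87756927, plus strand, GENCODE M21) lies within the Mir142b row, whose other strand had 186850 counts in replicate 1 and 186235 in replicate 2. On the scale of the sense-strand total this was 34005 ± 3529 CPM (SD, n = 2), which Mir126a exceeded 1.44-fold in replicate 1 and 1.33-fold in replicate 2. With Mir142 the leukocyte list was 1.09-fold Mir126a in replicate 1 and 1.14-fold in replicate 2. Without it, Mir126a exceeded the 5 leukocyte rows 2.53-fold and 2.59-fold, among them Mir223 and Mir342, the second at 807 ± 25.7 CPM.

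Among the remaining lists, the 6 mesenchymal rows were exceeded 2.81-fold in replicate 1 and 2.66-fold in replicate 2, and were mostly Mir143 at 16193 ± 1603 CPM. Mir214 averaged 709 ± 151 CPM, and Mir145a averaged 204 ± 15.6 CPM. The 5 epithelial and biliary rows, with Mir429 highest at 3624 ± 897 CPM, then Mir200b at 892 ± 213 CPM and Mir200c at 508 ± 260 CPM, were exceeded 10.7-fold and 7.61-fold. The hepatocyte list was 4.84-fold and 4.57-fold above Mir126a, through Mir122. The other hepatocyte members were each below Mir126a, with Mir192 at 3917 ± 483 CPM and Mir194-2 at 1558 ± 136 CPM.

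**Figure D2:**
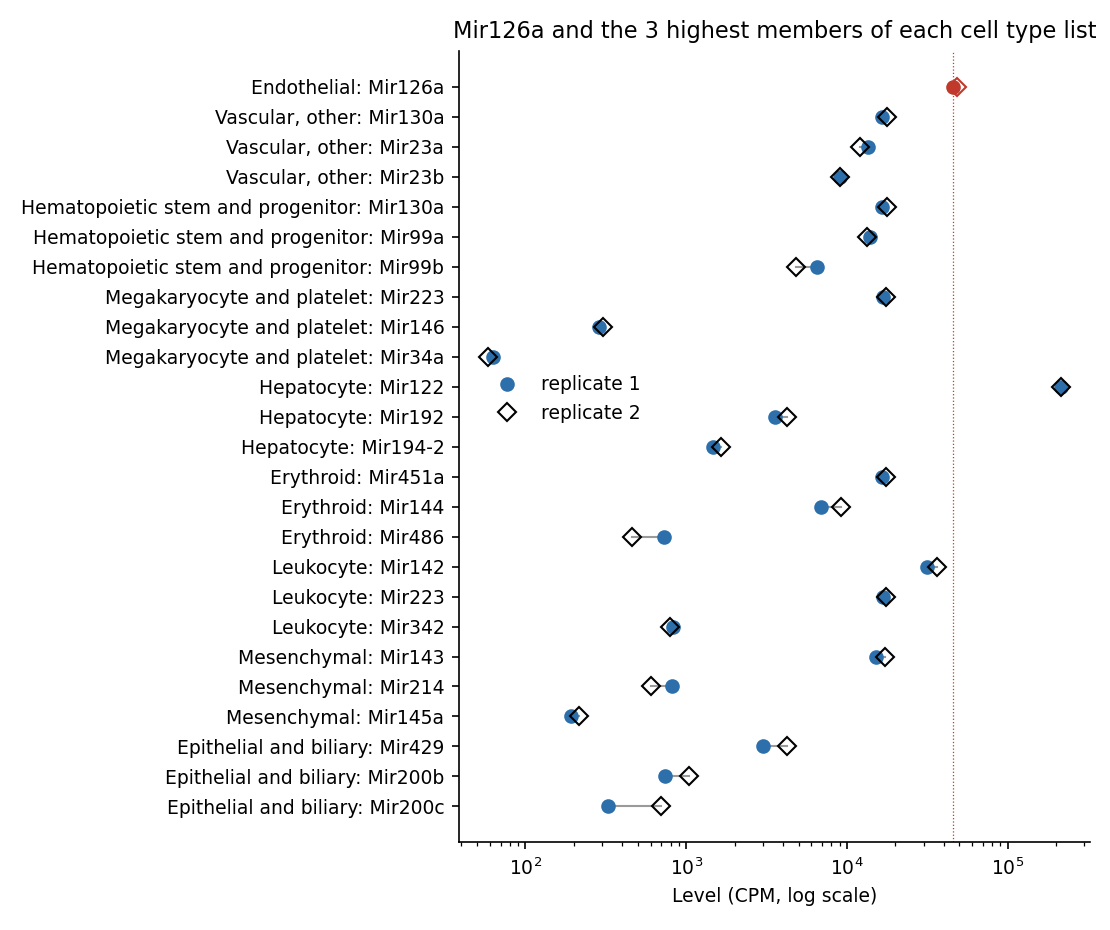
Level of Mir126a (red, top) and of the 3 highest other members of each list of cell type miRNAs (x axis, CPM, log scale), with filled circles for replicate 1, open diamonds for replicate 2 and a dotted line at Mir126a in replicate 1. Mir122 is the only point to the right of Mir126a, and the leading members of the blood, vascular and mesenchymal lists sit between 15059 and 36500 CPM. Mir142 is counted from the other strand of the Mir142b row.

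The level of Mir126a was close between the libraries. Its log2 ratio of replicate 1 over replicate 2 was -0.09 (counting SE 0.004), so replicate 2 was 1.07-fold higher, and its coefficient of variation over the libraries was 4.63%. With TMM scaling the log2 ratio was -0.17, a 1.13-fold difference with a coefficient of variation of 8.36%, and with DESeq2 size factors it was also -0.17. The exact conditional binomial test, which covers counting error only, gave an adjusted p of 5.91e-121, but with so many counts it called nearly every abundant row. It called 196 of 440 tested rows (44.5%), 77 of them lower in replicate 1 (17.5%) and 119 higher (27.0%). With TMM scaling, which lowers every log2 ratio by the same amount, the split was 96 lower and 98 higher. The test called 24 of the 26 rows with a mean of at least 10000 CPM (92.3%). Among 183 rows with a mean of at least 100 CPM, the median size of the log2 ratio was 0.20, and 49 rows had a smaller ratio than Mir126a. With TMM scaling that median was also 0.20, and 85 rows had a smaller ratio. Among the 26 rows with a mean of at least 10000 CPM, the median without TMM was 0.11, and 10 rows had a smaller ratio than Mir126a. The common biological coefficient of variation over 440 rows, from edgeR, was 22.9%, and the coefficient of variation of Mir126a was below it under each scaling. The 2 are unlike measures, since the first was fitted over rows of all levels and the second is the spread of 2 values of 1 abundant row.

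Among rows of at least 100 CPM, the log2 ratios nearest to that of Mir126a were those of Mir340 (-0.09) in Rnf130, Mir1981 (-0.09) in Marc2, Mir451a (-0.09), Mir28a (-0.08) in Lpp and Mir26b (-0.11). With 2 libraries such likeness is a difference of 1 number per gene and says nothing of shared control. Mir126a exceeded Mir451a 2.76-fold in replicate 1 and 2.78-fold in replicate 2. The lists of cell types differed in both directions between the libraries. Over all 440 tested rows the test, which covers counting error only, called 17.5% lower in replicate 1 and 27.0% higher. Of 17 tested vascular rows other than Mir126a, 1 was lower in replicate 1, 6 were higher and 10 did not pass the test, with a median log2 ratio of 0.06 against 0.08 over all 440 tested rows. Of the 8 tested stem and progenitor rows, 3 were lower in replicate 1 and 4 higher (median 0.03). These medians turn negative with TMM scaling, at -0.02 for the vascular rows (4 lower and 5 higher) and -0.04 for the stem and progenitor rows (4 lower and 2 higher), against 0.00 over all tested rows. All 5 epithelial and biliary rows were lower in replicate 1 (median -0.56), as were 2 of 3 erythroid rows (median -0.09), 4 of 5 hepatocyte rows (median -0.18) and 3 of 5 tested mesenchymal rows (median -0.16). Rows of a list need not be separate observations, as Mir429, Mir200b and Mir200a overlap the same coding gene, Ttll10. The remaining erythroid row, Mir486, was called higher in replicate 1 (log2 ratio 0.66). So was 1 mesenchymal row, Mir214 (0.44). Of 4 tested megakaryocyte rows and 5 leukocyte rows, 1 was called in each, Mir223, lower in replicate 1 (medians -0.07 and -0.07). With TMM scaling 2 were called in each, both lower in replicate 1. Mir142, outside the rows tested, had a log2 ratio of -0.21 (counting SE 0.005). Whether the makeup of the pools took part in the difference of Mir126a was not tested.

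**Figure D3:**
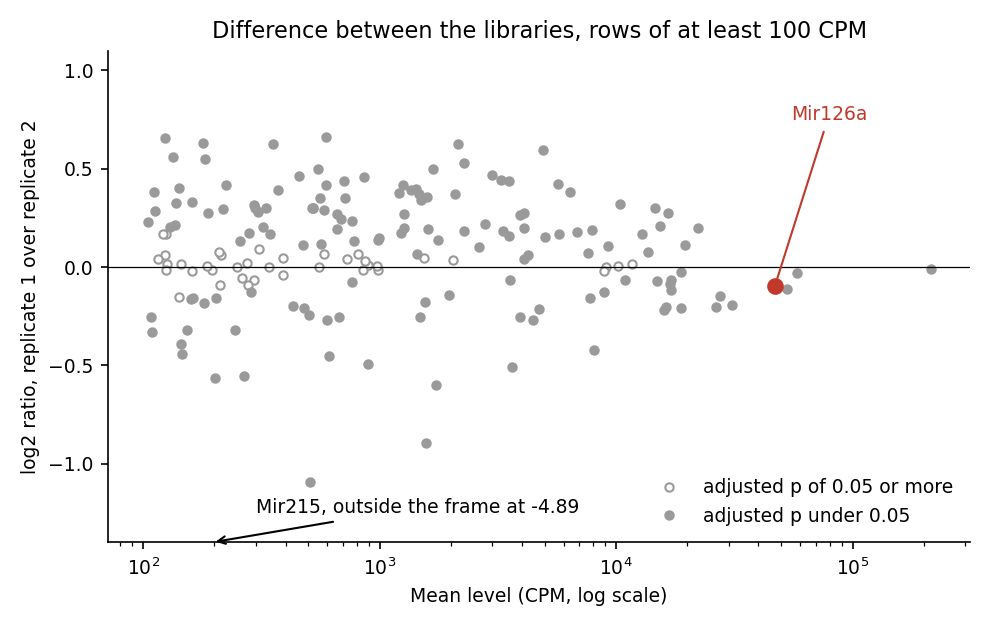
Log2 ratio of replicate 1 over replicate 2 (y axis) against mean level (x axis, CPM, log scale) for the 183 rows with a mean of at least 100 CPM, where filled points passed the exact binomial test at an adjusted p under 0.05. Mir126a, in red, lies at -0.09, below the median of 0.08 over these rows, while Mir215 at -4.89 falls outside the frame.

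The opposite strand of the Mir126a row, where miR-126b is annotated, held few counts, but a larger share than in 24 of the other 25 rows with a mean of at least 10000 CPM. It had 70 counts in replicate 1 and 99 in replicate 2, or 11.8 CPM in replicate 1 and 19.4 CPM in replicate 2 on the scale of the sense-strand total. These were 0.0260% of the row's counts in replicate 1, with a 95% Clopper-Pearson interval from 0.0202% to 0.0328%. They were 0.0400% in replicate 2, with an interval from 0.0325% to 0.0486%. The intervals overlapped only from 0.0325% to 0.0328%, and the difference between the libraries was not tested. There were 3852 sense-strand counts for each other-strand count in replicate 1 and 2502 in replicate 2.

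Most rows had no reads on the other strand. Of 244 rows with at least 100 counts in each library, 202 (82.8%) had 0 other-strand counts. Among the 26 rows with a mean of at least 10000 CPM, 16 had 0 and 8 had between 1 and 6 over both libraries. Mir122 had 2 in replicate 1 and 4 in replicate 2, or 0.000158% (interval 1.92e-05% to 0.000571%) and 0.000365% (9.96e-05% to 0.000936%), below the interval of Mir126a in each library. The other exception was Mir130a, with 86 other-strand counts in replicate 1 and 70 in replicate 2. By share of other-strand counts Mir126a ranked 30 of the 244 rows and 2 of the 26 abundant ones, after Mir130a. The highest shares, 100% in both libraries, belonged to Gm25927, Gm24083, Gm25301, Gm24321, Gm25252 and Gm25750, rows whose sense strand had no count. miR-126b has no row of its own, and a read cannot be assigned to either of its arms from these tables.

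**Figure D4:**
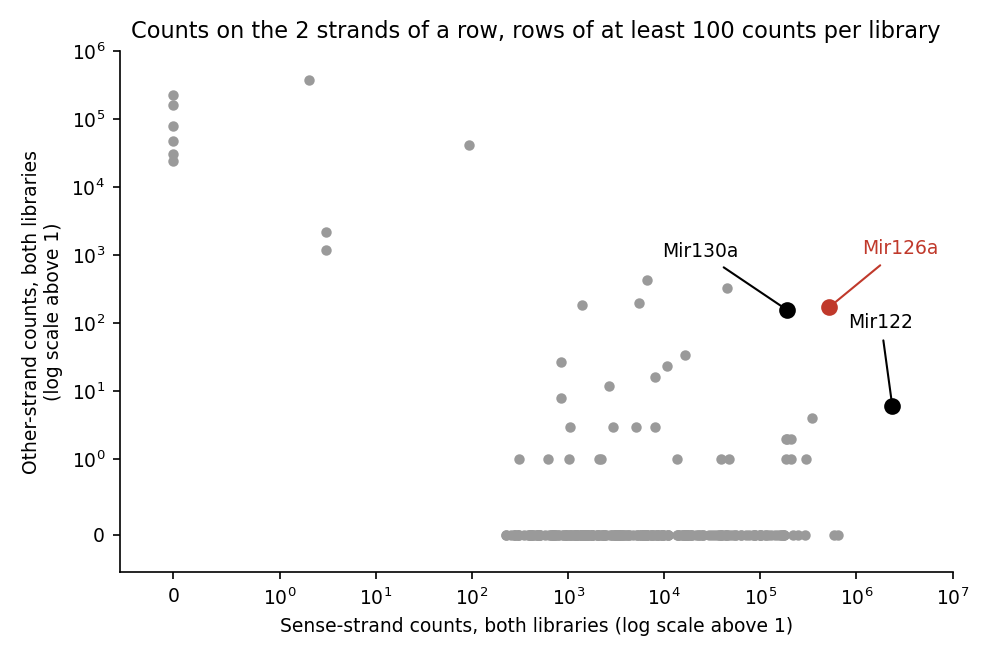
Other-strand counts (y axis) against sense-strand counts (x axis), summed over both libraries and on axes that are logarithmic above 1, for the 244 rows with at least 100 counts in each library. Mir126a (red), with 169 other-strand counts, and Mir130a, with 156, lie above the other abundant rows, which have 0 to 6, as Mir122 shows with the most sense-strand counts.

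The seed of miR-126a-3p was not shared. Among 1738 mature miRNAs in the RefSeq table, no other had the seed CGUACCG, whereas several neighbours in rank share theirs with the strands of several genes: the seed of let-7g-5p occurs in 13 genes, that of miR-26b-5p in 3 and that of miR-17-5p in 7. Mir335, the next row below, also has a seed of its own on either arm. A seed of 1 gene is not unusual in itself, since 1182 of 1398 seeds (84.5%) occurred in 1 gene. The seed of miR-126a-3p also holds the dinucleotide CG at 2 places. CG was counted on the mature strand, and 223 mature miRNAs (12.8%) had at least 1 in the seed and 19 (1.09%) had 2 or more.

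By symbol, 916 of the 1973 rows matched a mature sequence, and they held 75.8% of the counts in replicate 1 and 75.7% in replicate 2. Of these, 184 had a mature strand with CG in its seed, and 46 of the 184 (25%) reached a mean of 100 CPM, against 120 of 732 rows without (16.4%). This difference was not tested. Any annotated strand could place a row among the 184, so rows with more annotated strands had more chances. Mir122, the highest row of all with a mean of 21.4% of the counts, was not among the matched rows, so its seeds were not examined. Within the 184 matched rows with CG in a seed, Mir126a was the most abundant. Mir126a held 18.7% of their counts in replicate 1 and 20.8% in replicate 2. Behind it came Mirlet7i, Mir451a at 16978 ± 722 CPM, Mir127, which lies antisense to the imprinted gene Rtl1, at 16637 ± 2231 CPM, Mir431 and Mir99a. Counts are per hairpin, so the strand with CG may be the minor one, as with let-7i-3p. The Mir126a count also covers both arms, and these tables do not give the share of miR-126a-3p in it. The strands of Mir451a, Mir127 and Mir99a are shown to compare their single CG with the pair in miR-126a-3p, seed in capitals.
miR-126a-3p: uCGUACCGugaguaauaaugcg
miR-451a: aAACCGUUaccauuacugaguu
miR-127-3p: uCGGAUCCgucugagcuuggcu
miR-99a-5p: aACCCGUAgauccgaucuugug

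Among rows with a mature strand that has 2 or more CG in its seed, the Mir126a hairpin held most counts. There were 18 such rows among those matched to a mature sequence, which leave out Mir122. Mir126a made up 91.8% of the counts of these 18 in replicate 1 and 91.5% in replicate 2. The next was Mir341 of the Dlk1-Dio3 cluster, with 14304 counts in replicate 1 and 10855 in replicate 2, followed by Mir375, an endocrine pancreas miRNA, with 8173 counts in replicate 1 and 10644 in replicate 2. Only 5 of the 18 reached a mean of 100 CPM, the other two being Mir6236 at 144 CPM and Mir700 at 111 CPM. The strands of Mir341 and Mir375 that carry the CG pair are shown beside it, seed in capitals.
miR-341-3p: uCGGUCGAucggucggucggu
miR-375-5p: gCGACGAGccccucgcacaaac
In miR-375 the strand with the CG pair is the 5p strand, and these counts do not show which strand was read.

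**Figure D5:**
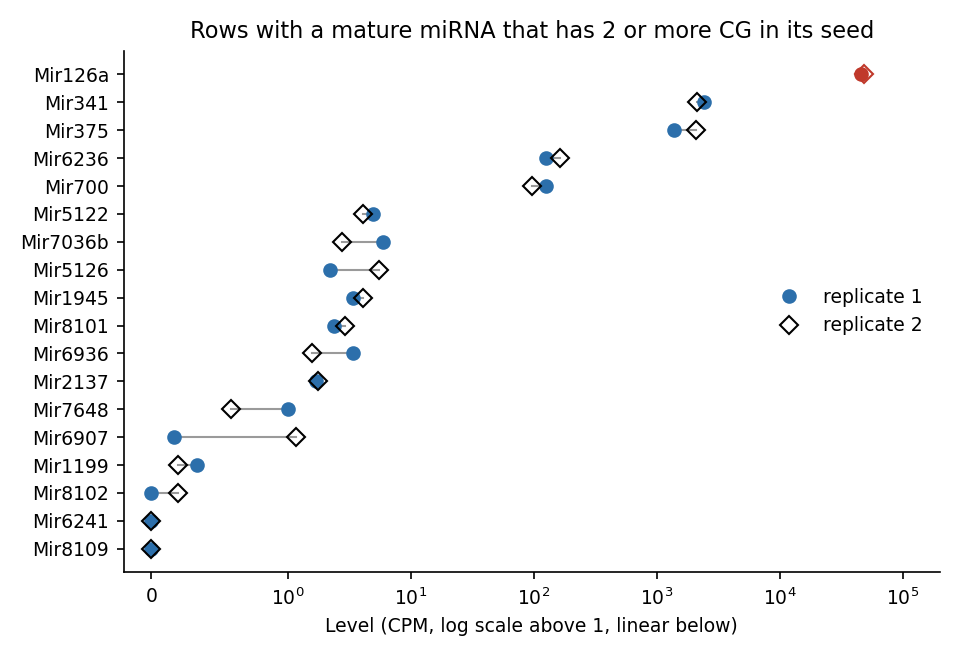
Level (x axis, CPM, logarithmic above 1 and linear below) of the 18 matched rows with a mature miRNA that has 2 or more CG in its seed, with filled circles for replicate 1 and open diamonds for replicate 2. Mir126a, in red, lies at 45470 CPM in replicate 1 and 48545 CPM in replicate 2, and the next row, Mir341, at 2412 CPM in replicate 1 and 2127 CPM in replicate 2.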

How the data were processed

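MicroRNA libraries of 2 liver pools were analysed as 1 group, from the source label. Raw counts per gene were deposited by the authors without a header, on assembly mm10 with annotation M4, per the text description deposited with them; the sources used here do not name the aligner or the counter. Column 3 was taken as the sense strand and column 4 as the other strand, and 4 tally rows stayed out of the totals. Of 14129766 and 12186088 reads tallied in replicates 1 and 2, 42.0% and 41.9% were sense-strand counts, and multimapping reads were 28.1% and 28.2%. Names, positions and hosts came from GENCODE M21 by versionless identifier (1894 of 1973 rows), and mature sequences from RefSeq by symbol. Mir92a-1 was matched to the Mir92-1 row as a RefSeq synonym, and Mir142 and Mir24-1, which have no row, were counted from the other strand of the rows that hold their hairpins. CPM used the sense-strand total, which makes a single count 0.169 CPM (replicate 1) or 0.196 CPM (replicate 2). A count of 0 allows up to 3 counts. Rows with 10 or more counts were tested by a two-sided exact conditional binomial test (SciPy 1.17.1) adjusted by Benjamini-Hochberg at a threshold of 0.05; log2 ratios had 0.5 added to each count. The test was run first on simulated data with known changes. The labels call the libraries biological replicates, and both carry the same donor label. It compares 2 libraries, and no quasi-likelihood test could be fitted within 1 group. edgeR 4.0.16 gave TMM factors and the coefficient of variation, and DESeq2 1.42.0 size factors. Named were Mir126a, the 5 rows on either side by mean CPM, the 5 of at least 100 CPM with the nearest log2 ratio, rows with the same seed, the 3 highest members of each list and the 5 highest other-strand shares; other list members, neighbours on chromosome 2, Gm25750 (tied at the highest other-strand share), other rows with CG in a seed and Mir215 were named after their values were seen. Mir126a and the lists were chosen with earlier results of these data known.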

Additional observations from a re-analysis of the deposited data

How the results depend on the processing

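Mir126a kept rank 4 with counts irrespective of strand, with other-strand counts ranked as rows of their own and in either library alone. It ranked 3 once every gene that shares an 18-base word with another was dropped, which removes Mirlet7g. Dropping genes can only keep or raise the rank. It cannot show where those genes would stand with their multimapping reads counted. The share of Mir126a was 4.32% irrespective of strand, 5.98% of a total without Mir122 and 1.97% of all tallied reads. Without replicate 1 or replicate 2 it was 4.85% or 4.55%. Under the 7 alternatives for it, the log2 ratio stayed between -0.17 (TMM and DESeq2 size factors) and -0.09, lower in replicate 1 and past the threshold. TMM split the 194 calls into 96 lower and 98 higher in replicate 1, and so did the DESeq2 size factors, against 77 and 119. On the log2 scale Mir126a stood at -0.15 against the leukocyte list sum with Mir142 and at 1.36 without it, an alternative chosen after seeing the data. No paired analysis was possible because there is 1 group. The 2 libraries limit every SD to 1 difference, and counts per hairpin do not separate the arms.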
